A study of Mus musculus with 7 samples.

Results

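The genes described here are the molecular chaperones and chaperonins, 34 genes given as a list of symbols, out of the 32286 features of each count matrix. They were split by the compartment in which their proteins work into 23 cytosolic genes (8 subunits of the chaperonin CCT, 8 genes of the HSP70 system and 7 of the HSP90 system), 7 genes of the endoplasmic reticulum (ER) and 4 mitochondrial genes. Single-cell RNA sequencing had been run on thymocytes sorted at the CD4-CD8- double-negative (DN) stages where αβ and γδ T cells part, with 1 library per group and no replicate, so that no difference between groups could be tested and every interval below covers counting error only. The 5 wild-type (WT) groups, from pooled thymi of female and male C57BL/6 mice of 6 to 8 weeks, were DN3a (before β- or γδ-selection), the αβ path without a surface γδ TCR (DN3b γδ-, then DN4 γδ-) and the γδ path (γδ-selected DN3b γδ+, then immature γδ T cells, DN4 γδ+). The remaining 2 groups, DN3 γδ- and DN3 γδint (an intermediate level of surface γδ TCR), came from Lat-/-TCRd-H2BEGFP mice, in which the signalling adaptor LAT is missing and which carry a GFP reporter in the Trdc locus that the WT mice lack. T cell development is held at DN3 in these mice, but the paper found this block less tight than reported before, with very few DN4 γδint cells. These 2 groups are called Lat-KO here, and genotype, reporter and library cannot be told apart in them. Where values are given by path, DN3b comes before DN4, and in the Lat-KO pair γδ- comes before γδint. WT thymocytes had been depleted of CD4+ and CD8+ cells with magnetic beads, all organs had been dissociated with collagenase, and 500 splenic B lymphocytes had been added to each library. CD71, the transferrin receptor of dividing cells, had been used in the sort to part DN3b γδ- and DN4 γδ- cells (CD71+) from DN3a cells, so that dividing state and stage cannot be told apart between these groups.

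Chaperones bind proteins that are not folded yet, and many chaperones release them in cycles driven by ATP. In the cytosol the HSP70 proteins act with J-domain partners that bring them clients and with exchange factors of the HSP110 kind, the HSP90 proteins finish kinases and steroid receptors with the help of co-chaperones, and the ring-shaped CCT complex folds actin and tubulin. The ER has its own HSP70 (Hspa5, also called BiP), its own HSP90 (Hsp90b1), disulfide isomerases and the lectin chaperones calnexin and calreticulin, which fold membrane and secreted glycoproteins such as T cell receptor chains, and mitochondria hold the chaperonin made of Hspd1 and Hspe1 and their own members of the HSP70 and HSP90 families.

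Levels are counts per 1000000 (CPM) of the unique molecular identifiers (UMIs) summed over the thymocyte barcodes of a library, meaning barcodes with at least 200 genes, at most 15% mitochondrial UMIs and at most 1 UMI of the B cell genes Cd79a, Cd79b and Ms4a1. There were 5274 to 18515 such barcodes and 37820685 to 338698944 UMIs per library, with Lat-KO DN3 γδint the shallowest and DN3b γδ- the deepest, and 577 barcode sequences occurred in more than 1 library. T cell markers were present, with 89.9% to 99.8% of thymocyte barcodes holding at least 3 UMIs of Cd3d, Cd3e and Cd3g, while B cell markers summed to 82.6 to 2447 CPM (highest in DN3a and Lat-KO DN3 γδ-), against 24929 to 49321 CPM in the barcodes of the added B cells. Myeloid markers summed to 100.05 to 193 CPM, plasmacytoid to 266 to 1062 CPM, NK to 7.46 to 345 CPM and erythroid to 0.149 to 169.6 CPM, and their part in the chaperone levels was not tested. The plasmacytoid list holds Ccr9 and the NK list Eomes, which the paper reports in DN4 γδ+ cells themselves. Siglech was at 0 in DN3a and DN4 γδ+, where the plasmacytoid sums were highest, but 4 of the 5 plasmacytoid markers had UMIs there. All 5 had UMIs in the other libraries. Ncr1 was at 0 in every library, but 4 of the 5 NK markers had UMIs in the later WT libraries. In DN3a 2 of these 5 had UMIs, and in each Lat-KO library 1 did. Whether these 2 sums come from plasmacytoid or NK cells was not tested. Lat was at 357 to 648 CPM in the WT libraries and at 4.83 and 0.899 CPM in Lat-KO DN3 γδ- and DN3 γδint. Every one of the 34 genes had between 731 and 1953980 UMIs per library, so the 95% interval of a CPM reached at most 7.32% of the value to either side, and that of a log2 ratio at most 0.13. As a reference for each library, the same genes were read in its 84 to 248 B-like barcodes (at least 10 UMIs of the 3 B cell genes and at most 2 of the CD3 genes), in which free RNA is counted too. Only 19 to 51 B-like barcodes per library reached a depth of 4000 UMIs, since their median depth was 2416 to 3747 UMIs. Of these deeper ones, 34.5% to 68.6% on the αβ path and in DN3b γδ+ held at least 4 UMIs of 20 cell-cycle genes (called the cycling range below). In the other libraries 0% to 10.5% of them did. These shares do not describe the shallower B-like barcodes. Thymocyte barcodes in the cycling range made up 13.0% in DN3a, 97.4% and 96.9% on the αβ path, 96.5% and 27.2% on the γδ path and 15.2% and 53.4% in the Lat-KO pair, with a further 296 to 1966 barcodes per library just under the limit. By its own phase scoring the study placed smaller shares of DN3b γδ+ and Lat-KO DN3 γδint cells in S and G2/M. The cycling range is thus wider than those phases.

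In DN4 γδ+ the ER chaperones parted from the cytosolic and mitochondrial ones (heat map of the log2 ratios). Relative to DN3a, the median cytosolic and mitochondrial chaperone was higher on the αβ path, in DN3b γδ+ and in Lat-KO DN3 γδint and lower in DN4 γδ+, whereas the median ER chaperone was above DN3a in all 6 libraries and highest in DN3b γδ+. The median log2 ratio to DN3a over the 23 cytosolic genes was 0.77 and 0.71 on the αβ path, 0.91 and -0.22 on the γδ path and 0.25 and 1.13 in the Lat-KO pair. Over the 7 ER genes it was 0.58 and 0.44 on the αβ path, 1.62 and 1.03 on the γδ path and 0.28 and 0.92 in the Lat-KO pair. Over the 4 mitochondrial genes it was 1.24 and 0.82 on the αβ path, 0.84 and -0.39 on the γδ path and 0.23 and 1.12 in the Lat-KO pair. The medians over all genes tested (7577 to 7579 genes with a mean CPM of at least 10) were -0.057 and -0.17 on the αβ path, -0.052 and -0.0075 on the γδ path and 0.22 and 0.47 in the Lat-KO pair. These 6 comparisons share the DN3a library and are not independent of each other. TMM scaling, a trimmed mean of the ratios of all genes, would add 0.36, 0.36, 0.32, 0.02, -0.17 and -0.42 to every log2 ratio of these 6 libraries to DN3a in the same order, which changed the sign of none of the 18 medians. The mitochondrial values of the Lat-KO pair depended on the summary: the log2 ratios of the summed counts were -0.14 and 0.36, with TMM scaling both sums were below DN3a, and with the B-like ratio subtracted the γδint median was 0.20.

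Of the 34 genes, 9 were at least 2-fold higher than in DN3a in DN3b γδ- (10.1% of all genes tested were) and 4 at the DN4 stage of that path (7.59%). On the γδ path the numbers were 13 (10.1%) and 4 (7.97%), and in the Lat-KO pair 0 (2.77%) and 20 (13.9%). With no replicate these are counts past a fold and no test stands behind them. They depended on the scaling: with TMM they were 21 (19.3% of all genes) and 19 (15.3%) on the αβ path, 21 (17.8%) and 5 (8.14%) on the γδ path and 0 (1.85%) and 4 (3.92%) in the Lat-KO pair. At least 2-fold lower than in DN3a were 2 genes in each of the 4 later WT libraries (14.3% and 17.2% of all genes on the αβ path, 13.2% and 6.82% on the γδ path), which were Hspa1a and Hspa1b every time, and 0 (0.752%) and 2 (4.69%) in the Lat-KO pair, which were Hspa1b and Hspe1. With TMM these counts were 2 (7.85%), 2 (10.3%), 2 (8.39%), 2 (6.60%), 1 (1.21%) and 2 (7.26%). The highest level of a gene was found in Lat-KO DN3 γδint for 17 of the 34 genes (45.1% of all genes tested), in DN3b γδ+ for 9 (6.95%), on the αβ path for 5 (10.2%, DN3b) and 2 (5.34%, DN4), and in DN3a for 1 (4.59%). With TMM scaling it was found in γδint for 2 (6.17%), in DN3b γδ+ for 11 (16.2%) and in DN3b γδ- for 17 (27.7%), so the place of γδint depended on the scaling. The lowest level was found in DN4 γδ+ for 21 (19.1%), and for 18 with TMM scaling (23.1%).

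**Figure D1:**
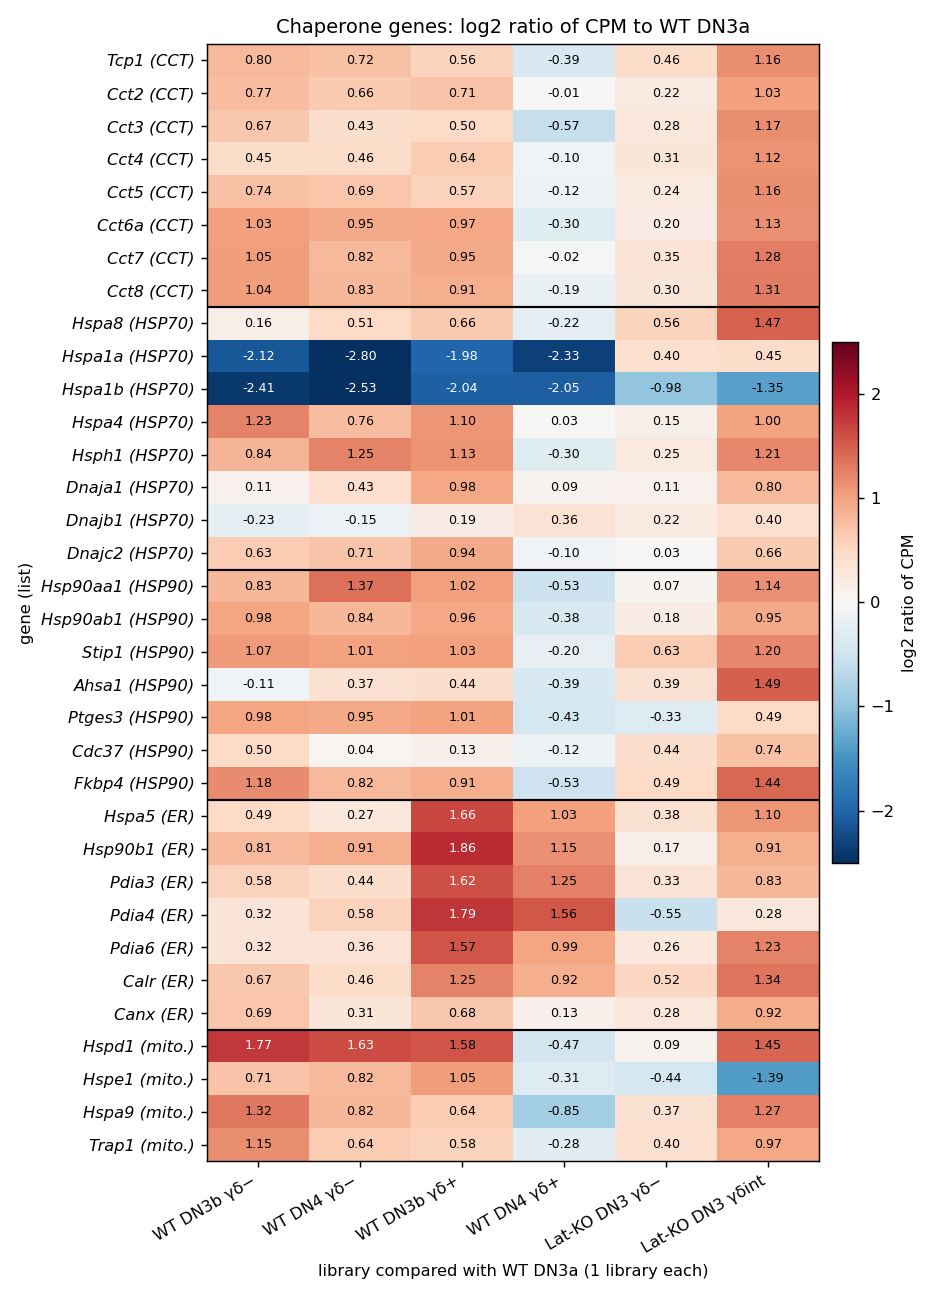
Heat map of the log2 ratio of CPM to WT DN3a (colour and printed value) for 34 chaperone genes in rows, grouped by list, and the 6 other libraries in columns. The ER rows run from 0.68 to 1.86 in DN3b γδ+, where 5 of the 7 are darkest (Calr and Canx are darkest in Lat-KO DN3 γδint), the CCT rows are darkest in Lat-KO DN3 γδint (1.03 to 1.31; with TMM scaling none of the 8 is), and Hspa1a and Hspa1b are at -1.98 or below in the 4 WT columns.

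Of the 7 ER chaperones, 5 were highest in DN3b γδ+, and Calr and Canx were highest in Lat-KO DN3 γδint. With TMM scaling 6 were highest in DN3b γδ+, Calr among them, and Canx was highest in DN3b γδ-. In DN4 γδ+, 6 of the 7 were above both αβ-path libraries (4 with TMM scaling). The share of all genes above both was not counted, so this number cannot be called particular to the ER genes. Summed over the 7 genes, the level was 1142 CPM in DN3a, 1745 and 1607 on the αβ path, 3219 and 2247 on the γδ path and 1433 and 2401 in the Lat-KO pair. DN3b γδ+ stood above every other library, also with TMM scaling. Hsp90b1, the ER member of the HSP90 family, which folds integrins and Toll-like receptors, was at 205 CPM in DN3a, 358 and 385 on the αβ path, 742 and 453 on the γδ path and 230.3 and 385 in the Lat-KO pair. Its level in DN3b γδ+ was 3.63 times that in DN3a, a log2 ratio of 1.86 (95% interval 1.83 to 1.89), and 2.07 times that in DN3b γδ-. Both γδ+ libraries stood above the other 5 for this gene, but with TMM scaling DN4 γδ+ was below DN4 γδ-. Canx (calnexin), the membrane-bound lectin chaperone, differed: it was at 161 CPM in DN3a, 261 and 199 on the αβ path, 257 and 176 on the γδ path and 196 and 305 in the Lat-KO pair, and its log2 ratio of DN3b γδ+ to DN3b γδ- was -0.020 (95% interval -0.036 to -0.0040).

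Pdia4, a disulfide isomerase, was the ER gene with the smallest log2 ratio of DN3b γδ- to DN3a (0.32) and the largest of DN3b γδ+ to DN3b γδ-, at 1.47. It was at 30.2 CPM in DN3a, 37.6 and 45.2 on the αβ path, 104 and 88.8 on the γδ path and 20.6 and 36.6 in the Lat-KO pair, and its 2 highest libraries were again the γδ+ ones. In B-like barcodes Pdia4 was at 78.5 to 139 CPM, above the thymocyte level of the same library in all 7. The other ER genes were Hspa5 (BiP), which holds nascent chains and keeps the stress sensors of the ER bound, the isomerases Pdia3 and Pdia6, and Calr (calreticulin), the soluble lectin chaperone, which was at 614 CPM in DN3b γδ+ and at 654 CPM in Lat-KO DN3 γδint. Their log2 ratios of DN3b γδ+ to DN3a were 1.66 for Hspa5, 1.62 for Pdia3, 1.57 for Pdia6 and 1.25 for Calr, and those of DN4 γδ+ to DN3a were 1.03, 1.25, 0.99 and 0.92 in the same order.

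Set directly against DN3b γδ-, the αβ-path library of the same stage, DN3b γδ+ was at least 2-fold higher for 5 of the 7 ER genes (Hspa5, Hsp90b1, Pdia3, Pdia4 and Pdia6) and for 0 of the 27 cytosolic and mitochondrial genes, where 4.50% of all genes tested were. With TMM scaling Pdia3 came to just under 2-fold and 4 ER genes were left (4.24%). The median log2 ratio was 1.05 over the ER genes, -0.022 over the cytosolic genes, -0.38 over the mitochondrial genes and -0.035 over all genes. None of the 34 genes was at least 2-fold lower (2.53%). Nearly all barcodes of both libraries lay in the cycling range, and within it the ER median was 1.05. In the B-like barcodes of these 2 libraries the summed ER level also differed, by a log2 ratio of 0.46 (0.31 to 0.61). Hsp90b1 was at 0.93 (0.59 to 1.26) there. The counting interval of the thymocyte ratio lay above that of the B-like ratio for 5 of the 7 ER genes and 0 of the other 27 (7.43% of all genes). These 5 were Hspa5, Pdia3, Pdia4, Pdia6 and Calr, and Hsp90b1 was not among them. With the B-like ratio subtracted gene by gene, the ER median was 0.61, beside 1.05.

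Between barcodes of the same cycling range the difference from DN3a was smaller, but it stayed past 2-fold for Hspa5, Hsp90b1, Pdia3 and Pdia4 in DN3b γδ+. In that range, which held 841 barcodes of DN3a and 10474 of DN3b γδ+, the median log2 ratio over the ER genes was 1.07 and 4 of the 7 were at least 2-fold higher (4.68% of all genes), while the medians over cytosolic and mitochondrial genes were 0.16 and 0.23 (plot of DN3b γδ+ ratios by range). For the αβ path the same restriction turned the ER median: it was -0.078 in DN3b γδ- and -0.18 in DN4 γδ-, against 0.58 and 0.44 over all thymocyte barcodes. In DN4 γδ+ it was 0.66. The thymocyte ratio of DN3b γδ+ to DN3a had its counting interval above that of the B-like ratio for all 7 ER genes (5.78% of all genes), and in DN4 γδ+ for 6 of 7 (8.48%).

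**Figure D2:**
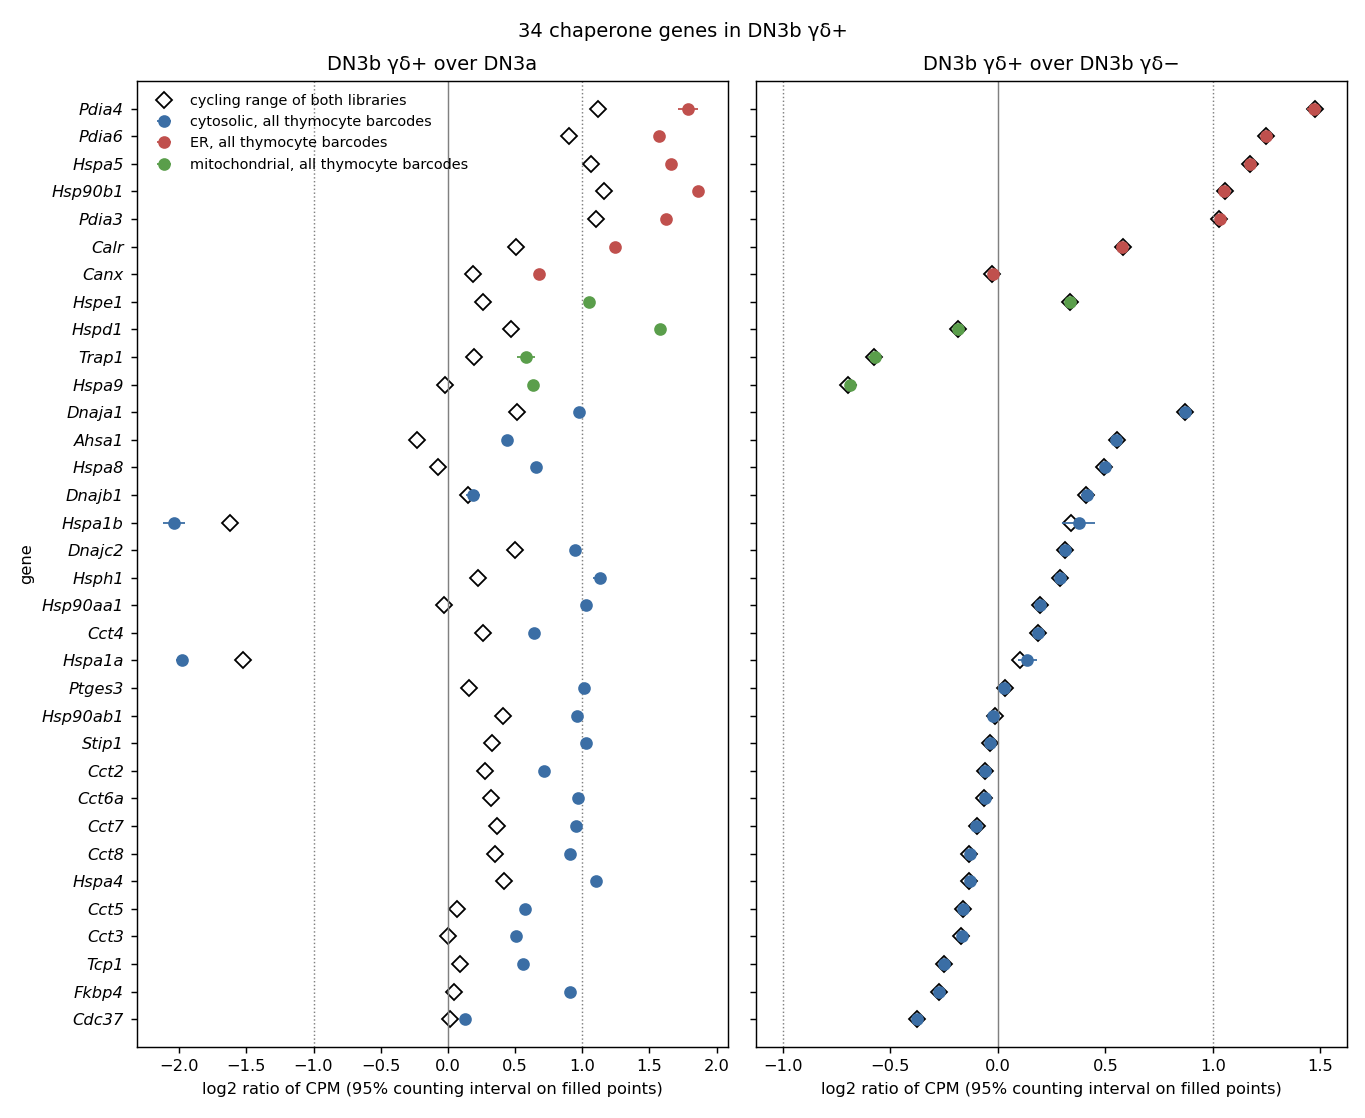
Log2 ratio of CPM of DN3b γδ+ over DN3a (left) and over DN3b γδ- (right) for 34 genes in rows, with filled points for all thymocyte barcodes (bars are 95% counting intervals, mostly hidden by the points), open diamonds for barcodes in the cycling range of both libraries, and dotted lines at 2-fold. On the left the diamonds of most cytosolic and mitochondrial genes lie near 0 and those of 4 ER genes stay beyond the line, and on the right 5 ER genes lie beyond it.

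Since most ER genes were high in the same libraries, the promoters of the 34 genes were searched for the ER stress element (CCAAT, 9 bases of any kind, then CCACG), the site through which the unfolded protein response acts on BiP and its relatives. RefSeq promoter windows (GRCm38.p6) were at hand for 28 of the 34 genes, and the 250 bases before each start were searched on both strands. The element was found for 5 of 7 ER genes, 0 of 18 cytosolic and 0 of 3 mitochondrial genes, and for 35 of 27025 genes overall (0.130%). Because it is known from BiP and its relatives, a match in such genes is no result of these data. Of 15 other ER folding genes with a window, which are no members, 2 held it (Creld2 and Dnajc3), and of 9 ER stress genes 0 did. Its part in the levels was not tested. Its letters contain a CCAAT box, and a match describes these letters and shows no binding. Each match is printed 5′ to 3′ on the strand of the gene with its letters in capitals, and those of Calr and of the proximal Hsp90b1 match run as the reverse complement.
Hspa5 (chr2:34772020-34772048, + strand): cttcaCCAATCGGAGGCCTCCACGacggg
Hsp90b1, distal match (chr10:86705633-86705661, - strand): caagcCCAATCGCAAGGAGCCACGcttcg
Hsp90b1, proximal match (chr10:86705528-86705556, - strand): gagtgCGTGGTGAGGCACGATTGGtgagt
Calr (chr8:84847070-84847098, - strand): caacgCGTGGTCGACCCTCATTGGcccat
Canx (chr11:50325795-50325823, - strand): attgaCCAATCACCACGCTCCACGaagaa
Pdia6 (chr12:17266486-17266514, + strand): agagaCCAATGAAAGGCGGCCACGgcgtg
The capitals start 65 bases before the RefSeq start in Hspa5, 212 and 107 in Hsp90b1, 162 in Calr, 145 in Canx and 98 in Pdia6. By GENCODE vM21 the Hspa5 match lies in an annotated 5′ untranslated region of that gene, and the others overlap no exon. Canx, whose ratio of DN3b γδ+ to DN3b γδ- was near 0, holds the element, and Pdia3 and Pdia4, at least 2-fold higher in that comparison, have no match in this window.

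Of 20 other ER folding genes tested, which are no members of the list, 4 were at least 2-fold higher in DN3b γδ+ than in DN3b γδ- (4.50% of all genes) and 0 lower (2.53%). Their median log2 ratio was 0.67, beside -0.035 over all genes. Named after their values were seen, these were Dnajc3 (1.44), Manf (1.36), Sdf2l1 (1.33) and Dnajb11 (1.05), of which Dnajc3, Sdf2l1 and Dnajb11 work with BiP. By the fixed rule, Creld2, a secreted ER protein, was the highest of these genes in DN3b γδ- over DN3a and was at 13.9 CPM in DN3a, 33.2 and 24.1 on the αβ path, 64.6 and 33.5 on the γδ path and 22.6 and 33.7 in the Lat-KO pair. Dnajb9, a J-domain partner of BiP, was the lowest and was at 39.8 CPM in DN3a, 8.14 and 10.1 on the αβ path, 13.8 and 27.9 on the γδ path and 33.8 and 36.9 in the Lat-KO pair, so it was below its DN3a level in all 6 other libraries, where Hspa5 was above its own. Of 6 tested genes of the ER stress sensors and factors, Xbp1 had the lowest ratio and Atf4 the highest. Xbp1, whose product binds ER stress elements, was at 144 CPM in DN3a, 33.9 and 34.9 on the αβ path, 55.3 and 62.4 on the γδ path and 210.4 and 182 in the Lat-KO pair, lower in the 4 later WT libraries than in DN3a, and Atf4 was at 97.0 CPM in DN3a, 89.3 and 94.9 on the αβ path, 105 and 88.6 on the γδ path and 92.6 and 139 in the Lat-KO pair. The 3' counts do not tell the spliced, active form of Xbp1 from the unspliced one.

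Summed cytosolic chaperones followed another order, with DN4 γδ+ last at either scaling and Lat-KO DN3 γδint first before TMM scaling but behind DN3b γδ+ and the αβ path after it. The 23 genes summed to 10289 CPM in DN3a, 16797 and 17376 on the αβ path, 18129 and 8386 on the γδ path and 12512 and 22438 in the Lat-KO pair (plot of summed levels), which was 0.839% of all thymocyte UMIs in DN4 γδ+ and 2.24% in γδint. In B-like barcodes the same genes summed to 5372 to 10628 CPM and their log2 ratio to DN3a was 0.061 and 0.73 on the αβ path, 0.66 and 0.16 on the γδ path and -0.25 and 0.53 in the Lat-KO pair. The cytosolic sums of DN4 γδ-, DN3b γδ+ and γδint were thus higher than in DN3a in the added B cells as well, and the part of free RNA or library in the thymocyte ratios was not tested. T cell markers in B-like barcodes summed to 514 CPM in DN3a, 1075 and 1773 on the αβ path, 1682.5 and 812 on the γδ path and 373 and 863 in the Lat-KO pair. Thymocyte RNA is thus counted there, and subtracting the B-like ratio can take away part of a thymocyte difference. Gene by gene, with the B-like log2 ratio subtracted, the cytosolic median was -0.032 for DN4 γδ-, 0.15 for DN3b γδ+ and 0.40 for γδint.

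**Figure D3:**
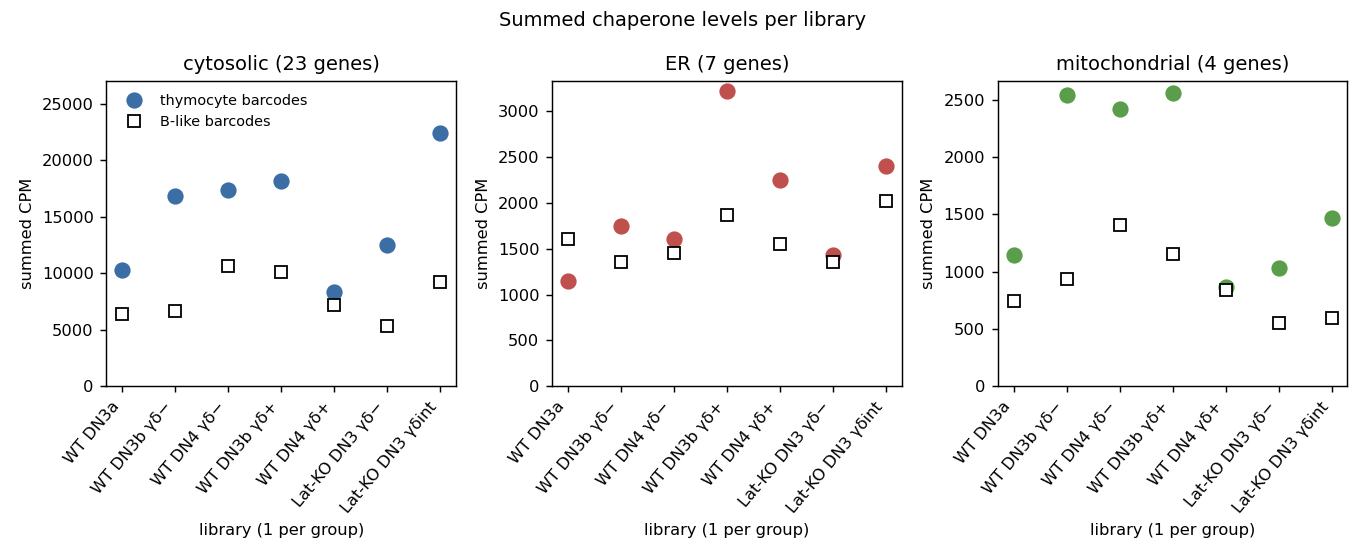
Summed CPM of the 23 cytosolic, 7 ER and 4 mitochondrial chaperone genes (panels, linear axis from 0) in each of the 7 libraries, in thymocyte barcodes (filled circles) and in B-like barcodes (open squares). Thymocyte ER levels peak in DN3b γδ+ at 3219 CPM, cytosolic levels in Lat-KO DN3 γδint at 22438 CPM (with TMM scaling in DN3b γδ+), and in DN4 γδ+ the circles and squares of the cytosolic and mitochondrial panels nearly meet.

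All 8 CCT subunits were above DN3a on the αβ path (47.3% and 41.2% of all genes tested were) and in DN3b γδ+ (47.6%). All 8 were also above it in the Lat-KO pair, where most genes were (74.4% and 79.8%). In DN4 γδ+ all 8 were below DN3a (50.7% of all genes), or 7 of 8 with TMM scaling (48.9%). All 8 were lowest there (19.1%), or 7 with TMM scaling (23.1%). All 8 were highest in Lat-KO DN3 γδint (45.1% of all genes). None was with TMM scaling (6.17%), where 7 were highest in DN3b γδ- (27.7%) and Cct4 in DN3b γδ+. Cct7 was at 227 CPM in DN3a, 471 and 399.5 on the αβ path, 439 and 223 on the γδ path and 289 and 552 in the Lat-KO pair. Cct8 was at 286 CPM in DN3a, 587 and 509 on the αβ path, 537 and 250.4 on the γδ path and 352 and 708 in the Lat-KO pair, and Cct4, with the smallest ratio of DN3b γδ- to DN3a, was at 266 CPM in DN3a, 363 and 366 on the αβ path, 414 and 248 on the γδ path and 329 and 578 in the Lat-KO pair. For the other 5, Tcp1, Cct2, Cct3, Cct5 and Cct6a, the log2 ratio of DN3b γδ- to DN3a lay between 0.67 (Cct3) and 1.03 (Cct6a). The 8 ratios ran from 0.45 to 1.05 in DN3b γδ- and from 1.03 to 1.31 in Lat-KO DN3 γδint. In B-like barcodes the 8 subunits together had log2 ratios of 0.50 and 1.11 for the same 2 libraries, and the counting interval of the thymocyte ratio lay above the B-like one for 3 of 8 subunits in DN3b γδ- (5.26% of all genes) and 0 of 8 in Lat-KO DN3 γδint (2.64%).

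In the HSP90 system, Hsp90ab1, the constitutive cytosolic HSP90, was at 2916 CPM in DN3a, 5769 and 5213 on the αβ path, 5680.2 and 2242 on the γδ path and 3301 and 5639 in the Lat-KO pair, and Hsp90aa1, the inducible one, was at 1127 CPM in DN3a, 2004 and 2918 on the αβ path, 2294 and 781 on the γδ path and 1179.6 and 2485 in the Lat-KO pair. Hsp90ab1 was highest in DN3b γδ- and Hsp90aa1 in DN4 γδ- at either scaling. The log2 ratio of Hsp90aa1 in DN4 γδ- to DN3a was 1.37 (95% interval 1.36 to 1.38). Its share of the UMIs of the pair was 35.9% in DN4 γδ-, against 25.8% to 30.6% in the other 6 libraries. In the B-like barcodes that share was 30.5% (28.3% to 32.8%) in DN4 γδ- and 20.2% to 28.9% elsewhere. The B-like interval of DN4 γδ+ (26.5% to 31.4%) overlapped that of DN4 γδ-. The 2 genes are paralogs, and how reads shared by both were counted is not given in the sources used here.

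Among the co-chaperones of HSP90, Fkbp4, an immunophilin of steroid receptor complexes, was at 221 CPM in DN3a, 502 and 390.0 on the αβ path, 416 and 154 on the γδ path and 312 and 602 in the Lat-KO pair. Stip1, which hands clients from HSP70 to HSP90, was at 114 CPM in DN3a, 238 and 229 on the αβ path, 232 and 99.0 on the γδ path and 175 and 262 in the Lat-KO pair. Both were lowest in DN4 γδ+, and both were highest in Lat-KO DN3 γδint, or in DN3b γδ- with TMM scaling. Ahsa1, which speeds up the HSP90 ATPase, had the smallest ratio of DN3b γδ- to DN3a in this group and was at 129 CPM in DN3a, 119 and 167 on the αβ path, 175 and 98.5 on the γδ path and 168 and 361 in the Lat-KO pair, so that before TMM scaling it was more than 1.5-fold above DN3a only in Lat-KO DN3 γδint. Ptges3, which steadies the closed form of HSP90, had log2 ratios to DN3a of 0.98 in DN3b γδ-, 1.01 in DN3b γδ+ and -0.33 in Lat-KO DN3 γδ-, and Cdc37, the adaptor for kinases, stayed between -0.12 (DN4 γδ+) and 0.74 (Lat-KO DN3 γδint).

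In the HSP70 system the highest library differed from gene to gene. Hspa8, the constitutive cytosolic HSP70, was at 2020.2 CPM in DN3a, 2256 and 2868 on the αβ path, 3185 and 1735 on the γδ path and 2978 and 5612 in the Lat-KO pair, with a log2 ratio to DN3a of 1.47 (95% interval 1.46 to 1.48) in Lat-KO DN3 γδint. Hspa4, an exchange factor of the HSP110 kind, was at 110.1 CPM in DN3a, 259 and 187 on the αβ path, 236 and 112 on the γδ path and 122 and 220.3 in the Lat-KO pair, and Hsph1, another, was at 63.4 CPM in DN3a, 114 and 151 on the αβ path, 139 and 51.5 on the γδ path and 75.5 and 147 in the Lat-KO pair. Hspa4 was highest in DN3b γδ- and Hsph1 in DN4 γδ-. Of the J-domain partners, Dnaja1 had its highest level in DN3b γδ+ (1047 CPM, against 532 to 928 CPM elsewhere), and so had Dnajc2, which works at the ribosome (253 CPM, against 123 to 215 CPM). In B-like barcodes both also had their largest value in DN3b γδ+, at 894 CPM (794 to 1004) for Dnaja1 and 144 CPM (105 to 192) for Dnajc2. These intervals overlapped those of DN4 γδ-, at 721 CPM (638 to 812) and 122 CPM (89.3 to 163).

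Within a library, barcodes in the cycling range held more chaperone UMIs than those with at most 1 cell-cycle UMI. In DN3a, the 841 barcodes of the cycling range were compared with 3655 of the latter kind, and 32 of 34 genes were higher in the cycling ones, with a median log2 ratio of 0.83, beside a median of -0.057 over all genes. The same held in the 6 other libraries, where 31 to 33 of the 34 genes were higher and the medians ran from 0.48 to 0.81, beside -0.081 to -0.017 over all genes. On the αβ path and in DN3b γδ+, however, only 67 to 113 barcodes held at most 1 such UMI. At least 2-fold higher were 8 genes in DN3a (6.52% of all genes), 11 (8.77%) and 8 (10.8%) on the αβ path, 2 (7.80%) and 7 (8.66%) on the γδ path and 3 (4.88%) and 3 (5.33%) in the Lat-KO pair. Hspa1a was lower in the cycling range of 6 of the 7 libraries by its counting interval. Between libraries, restricting both to the cycling range took the cytosolic median of DN3b γδ- over DN3a from 0.77 to 0.19, of DN4 γδ- from 0.71 to 0.10, of DN3b γδ+ from 0.91 to 0.16 and of Lat-KO DN3 γδint from 1.13 to 0.68, and no cytosolic gene of these 3 WT libraries was then at least 2-fold higher (3.44% and 2.77% of all genes on the αβ path, 4.68% in DN3b γδ+). The range is cut from a score and is not a cell type, and counts of the cell-cycle genes include free RNA.

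Of the 34 genes, the mitochondrial Hspd1 had the highest ratio to DN3a in both αβ-path libraries. Hspd1, the large subunit of the mitochondrial chaperonin, was at 309 CPM in DN3a, 1054 and 958 on the αβ path, 926 and 224 on the γδ path and 329.8 and 845 in the Lat-KO pair, 3.41 times its DN3a level in DN3b γδ-, a log2 ratio of 1.77 (95% interval 1.75 to 1.79). Hspa9, the HSP70 of the matrix, was at 118 CPM in DN3a, 294 and 208 on the αβ path, 183 and 65.2 on the γδ path and 152 and 283 in the Lat-KO pair, and Trap1, the mitochondrial HSP90, ran from 33.9 CPM in DN4 γδ+ to 91.8 CPM in DN3b γδ-. For these 3 genes DN3b γδ- was the highest and DN4 γδ+ the lowest library. In B-like barcodes Hspd1 had a log2 ratio to DN3a of 0.49 (0.095 to 0.90) in DN3b γδ- and of 1.28 (0.87 to 1.69) in DN4 γδ-, where the thymocyte ratio was 1.63. In the cycling range the log2 ratio of Hspd1 to DN3a was 0.65 in DN3b γδ- and 0.47 in DN3b γδ+.

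Hspe1, the small subunit that caps the same chaperonin, was above DN3a where Hspd1 was in the WT libraries, but parted from it in Lat-KO DN3 γδint. In Lat-KO DN3 γδ- Hspd1 was just above DN3a and Hspe1 below, and with TMM scaling both were below. It was at 673 CPM in DN3a, 1101 and 1187 on the αβ path, 1390.1 and 541 on the γδ path and 496 and 257 in the Lat-KO pair. Hspd1 was 2.56 times its Lat-KO DN3 γδ- level in Lat-KO DN3 γδint, whereas Hspe1 had a log2 ratio of -0.95 (95% interval -0.98 to -0.91). In the B-like barcodes of γδint there were 165 CPM of Hspe1, against 342 to 840.3 CPM in the other libraries, and their log2 ratio to DN3a was -1.54 (-1.98 to -1.12), beside -1.39 (95% interval -1.42 to -1.36) in thymocytes. By its longest annotated transcript (964 nucleotides) Hspe1 is the shortest of the 34 genes. Of 6 prefoldin subunits, which are no members, 5 were also below DN3a in this library (20.2% of all genes tested were, 45.5% with TMM scaling). Their median log2 ratio was -0.50 in thymocytes (-0.92 with TMM scaling), and their summed one was -0.55 in B-like barcodes. The part of the library or of transcript length in these ratios was not tested.
The 2 genes lie head to head on chromosome 1. Hspd1 has 2 RefSeq starts, of which 1 lies within Hspe1, so that these transcripts overlap, and the other leaves 215 bases to the Hspe1 start. That stretch holds the heat shock element of 3 units (GAA, TTC and GAA with 2 bases between each) in 2 overlapping matches on opposite strands, so that 4 units follow each other, printed here from the Hspd1 strand with the units in capitals.
Hspd1 and Hspe1 (chr1:55088053-55088082, - strand): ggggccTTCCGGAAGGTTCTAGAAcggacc
By GENCODE vM21 it also lies in an annotated 5′ untranslated region of Hspd1. No other gene of the 28 searched held 3 units, and 139 of 27025 genes did (0.514%).

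Hspa1a and Hspa1b, the heat-inducible HSP70 genes, and Dnajb1, the inducible J-domain partner, are known to be switched on while tissue is dissociated, and the HSP70 pair parted from the other chaperones. Hspa1a was at 146 CPM in DN3a, 33.7 and 21.0 on the αβ path, 37.1 and 29.1 on the γδ path and 193 and 199.8 in the Lat-KO pair. Hspa1b was at 49.3 CPM in DN3a, 9.27 and 8.55 on the αβ path, 12.03 and 11.9 on the γδ path and 25.03 and 19.3 in the Lat-KO pair, and Dnajb1 at 74.5 CPM in DN3a, 63.5 and 67.0 on the αβ path, 84.8 and 95.8 on the γδ path and 86.5 and 98.5 in the Lat-KO pair (plot of the 3 genes by library). Hspa1a was thus high in DN3a and both Lat-KO libraries and low in the 4 later WT libraries, with a log2 ratio of DN4 γδ- to DN3a of -2.80 (95% interval -2.85 to -2.75), Hspa1b was highest in DN3a, and Dnajb1 ran over a range of less than 2-fold. In B-like barcodes Hspa1a was at 5.95 to 43.8 CPM, with its smallest value in DN3b γδ-, from 4 UMIs. Hspa1b had 0 to 21 UMIs there. Its largest B-like value was in DN3a, at 49.3 CPM (30.5 to 75.4), the level found in thymocytes. The B-like value of DN3b γδ+ overlapped it, at 40.7 CPM (21.6 to 69.5), where thymocytes were at 12.03 CPM. A further 13 genes known from dissociated tissue, immediate early genes such as Fos and Jun among them, summed to 2949.6 CPM in DN3a, 576 and 659 on the αβ path, 1197 and 2198 on the γδ path and 2868 and 2676 in the Lat-KO pair for thymocytes, and to 2169.7 to 4186 CPM in B-like barcodes.

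At 4000 UMIs per barcode, Hspa1a had a UMI in 21.2% of DN3a barcodes (95% exact interval 20.3% to 22.3%), and in 22.8% and 25.9% in the Lat-KO pair, against 5.29% to 9.80% in the 4 later WT libraries. The share of B-like barcodes with a UMI was 2.17% to 11.4%, from 19 to 51 barcodes each. The thymocyte shares of the 4 later WT libraries lay within this range over all libraries. Within DN3b γδ-, however, Hspa1a was at 33.7 CPM (33.1 to 34.3) in thymocytes and 5.95 CPM (1.62 to 15.2) in B-like barcodes. In DN4 γδ-, DN3b γδ+ and DN4 γδ+ its thymocyte CPM was below the B-like one but within the 95% interval of the latter. These B-like values came from 12, 14 and 17 UMIs, too few to tell the 2 levels apart. The added B cells also came from dissociated tissue, so they are no pure background. The thymocyte UMIs of Hspa1a were unevenly spread, with up to 34 in 1 barcode of DN3a and up to 42 in 1 of Lat-KO DN3 γδ-. Barcodes of DN3a with Hspa1a held a mean of 15.5 UMIs of the other dissociation genes, those without it 11.99. Whether these values come from the dissociation was not tested.

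**Figure D4:**
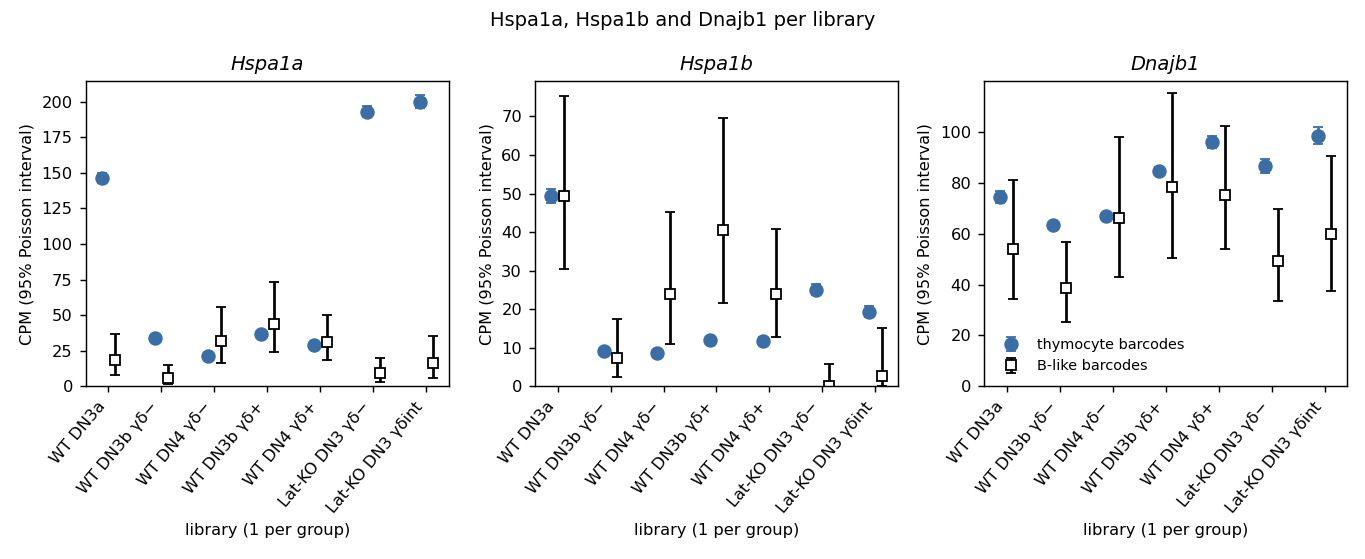
CPM of Hspa1a, Hspa1b and Dnajb1 (panels, linear axis from 0) in each of the 7 libraries, in thymocyte barcodes (filled circles) and B-like barcodes (open squares), with 95% Poisson intervals. Hspa1a lies at 146 to 199.8 CPM in the thymocytes of DN3a and the Lat-KO libraries and at 21.0 to 37.1 CPM in the other 4, while the squares stay between 5.95 and 43.8.

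The split between Hspa1a and Hspa1b is uncertain, since the genes are near-identical neighbours on chromosome 17 and reads may have been assigned to either. Summed, they were at 196 CPM in DN3a, 43.0 and 29.6 on the αβ path, 49.1 and 41.0 on the γδ path and 218 and 219 in the Lat-KO pair, so the order of libraries was that of Hspa1a. Hspa1a took 71.0% to 78.4% of the UMIs of the pair in the 5 WT libraries and 88.5% and 91.2% in the Lat-KO libraries. Their promoters differ at 3 of the 250 bases searched, and both hold 1 heat shock element of 2 units (GAA and TTC with 2 bases between), shown in capitals to make the likeness plain.
Hspa1a (chr17:34972242-34972271, - strand): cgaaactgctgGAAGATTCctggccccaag
Hspa1b (chr17:34959324-34959353, - strand): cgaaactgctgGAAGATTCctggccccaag
Both stretches overlap no exon by GENCODE vM21. These letters, which also occur within the element of 3 units, were found for 5 of 18 cytosolic genes (Cct2, Dnaja1, Fkbp4, Hspa1a and Hspa1b), 2 of 3 mitochondrial and 0 of 7 ER genes, and for 7.73% of all genes.

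Between DN3b and DN4 no chaperone differed 2-fold on the αβ path, whereas on the γδ path 33 of the 34 genes (46.8% of all genes tested) were below their DN3b level and Dnajb1 was above it (0.18, below 0 with TMM scaling). Of the 34 genes, 0 were at least 2-fold higher or lower in DN4 γδ- than in DN3b γδ- (0.528% and 1.19% of all genes), and 14 were at least 2-fold lower in DN4 γδ+ than in DN3b γδ+ (6.89%), with 0 higher (9.16%). With TMM scaling the latter count was 24 (14.2%). The 14 were 3 CCT subunits, 3 genes of the HSP70 system, 5 of the HSP90 system, 3 mitochondrial genes and no ER gene. The median log2 ratio of DN4 γδ+ to DN3b γδ+ was -0.98 over the cytosolic, -0.55 over the ER and -1.42 over the mitochondrial genes, and Hspd1 had the lowest, -2.05 (95% interval -2.07 to -2.03). In B-like barcodes of the same 2 libraries the summed ratios were -0.50, -0.26 and -0.45, and within the cycling range the thymocyte medians were -0.60, -0.27 and -1.04.

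In mice without LAT, chaperone levels were higher in DN3 γδint than in DN3 γδ-. The median log2 ratio between the 2 libraries was 0.82 over the cytosolic, 0.74 over the ER and 0.73 over the mitochondrial genes, against 0.21 over all genes. A total of 32 of the 34 genes lay above 0 (70.1% of all genes tested did), and 30 with TMM scaling (46.7%), with Hspa1b (-0.37) and Hspe1 (-0.95) below, and 4 were at least 2-fold higher (5.01%), 0 lower (3.58%). These 4 were Hspd1 (1.36), Ahsa1 (1.10), Hsp90aa1 (1.08) and Cct8 (1.01). The summed log2 ratios were 0.84, 0.74 and 0.51 in thymocytes and 0.78, 0.57 and 0.13 (-0.12 to 0.37) in the added B cells of these libraries. With the B-like ratio subtracted gene by gene, the medians were 0.027 (22 genes, without Hspa1b, which had no B-like UMI in DN3 γδ-), 0.18 and -0.012 in the same order. The study notes that the γδint library differed in its share of ribosomal mRNA. TMM scaling lowered every log2 ratio of this pair by 0.25, which left 1 gene at least 2-fold higher (2.78%) and 1 lower (5.17%). In Lat-KO DN3 γδ- against DN3a, 30 of 34 genes lay above 0 (74.4% of all genes tested did), and 25 with TMM scaling (56.3%), none of them past 2-fold, and the cytosolic median was 0.083 with TMM scaling, beside 0.25.

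With every thymocyte barcode thinned to 4000 UMIs (343 to 1769 shallower barcodes per library left out), the median number of UMIs of the 7 ER genes per barcode, with quartiles, was 4 (2 to 5) in DN3a, 6 (4 to 9) and 6 (4 to 8) on the αβ path, 12 (8 to 16) and 6.5 (4 to 11) on the γδ path and 5 (3 to 7) and 8 (5 to 12) in the Lat-KO pair (plot of UMIs per barcode). The upper quartile of DN3a lay below the lower quartile of DN3b γδ+, but far fewer DN3a barcodes were in the cycling range, and within that range the quartiles overlapped, at 6 (3 to 9) in DN3a and 12 (8 to 16) in DN3b γδ+. For the cytosolic genes the medians were 35, 66, 66, 70, 25, 44 and 74 in the same order of libraries, and for the mitochondrial genes 3, 10, 9, 10, 2, 3 and 4. From the 10th to the 90th percentile, the cytosolic UMIs spread most in Lat-KO DN3 γδint, from 50 to 125, and the ER UMIs in DN3b γδ+, from 5 to 21. In DN4 γδ+, 8.67% of barcodes had no UMI of the 4 mitochondrial genes at this depth.

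**Figure D5:**
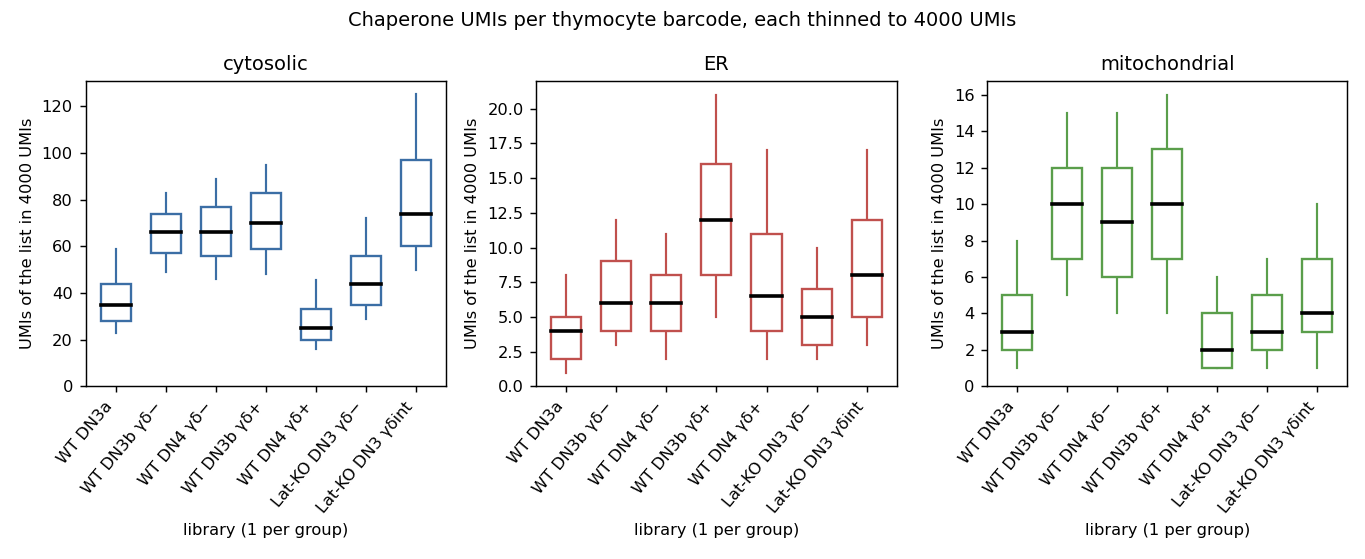
UMIs of the cytosolic, ER and mitochondrial chaperone genes (panels) per thymocyte barcode after thinning to 4000 UMIs in each of the 7 libraries, with the median (black line), quartiles (box) and 10th to 90th percentile (line). ER medians run from 4 in DN3a to 12 in DN3b γδ+, and barcodes are not replicates.

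The wider folding network, fixed as lists of 95 genes of which 80 were tested, had list medians on both sides of 0. Relative to DN3a in DN3b γδ-, where 10.1% of all genes were at least 2-fold higher and 14.3% lower, the 6 prefoldin subunits, which pass chains to CCT, had a median log2 ratio of 0.17, with 0 past 2-fold, the 19 other HSP70, J-domain and BAG genes one of 0.31, with 3 higher and 3 lower, the 14 other co-chaperones of HSP90 one of 0.60, with 3 higher and 1 lower, and the 12 other mitochondrial folding and protease genes one of 0.51, with 2 higher and 0 lower. The 20 other ER genes stood at 0.072, with 1 higher and 2 lower, and the 6 ER stress genes at -0.32, with 0 higher and 2 lower. In each list the highest and lowest of this ratio were Pfdn1 (0.94) and Pfdn5 (-0.26), Hspa14 (1.18) and Dnajb4 (-1.60), Aarsd1 (1.76) and Fkbp5 (-1.01), and Lonp1 (1.57) and Hscb (-0.89). Fkbp5, an immunophilin that glucocorticoids are known to raise, was at 462 CPM in DN3a, 229 and 203 on the αβ path, 112 and 78.5 on the γδ path and 444 and 450.4 in the Lat-KO pair, lowest in the γδ+ libraries. Of the 7 small heat shock protein and collagen chaperone genes only Hspb11 passed the limit of 10 CPM, at 0.45. Hsf1, the factor that acts on heat shock elements, was at 23.6 CPM in DN3a, 27.2 and 22.9 on the αβ path, 22.2 and 18.3 on the γδ path and 36.4 and 41.6 in the Lat-KO pair, and Hsf2 at 11.2 to 12.7 CPM.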

How the data were processed

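Single-cell 3' libraries of 7 sorted thymocyte samples were analysed from the filtered UMI count matrices that the authors deposited. The deposited counts, with no normalization, had been made with Cell Ranger on mm10 with an edited Trdc feature. The methods and the submitters' notes give version 5.0.1, the matrix headers 4.0.0. Barcodes were filtered as stated in the text and UMIs summed per library and scaled to CPM. Doublets had been gated out by scatter in the sort. No doublet caller was run here: the limit on B cell UMIs left out barcodes that mix B and T cells, pairs of thymocytes were not removed, and leaving out the 8% deepest barcodes was tried as an alternative. With 1 library per group no test was run: levels carry exact Poisson, shares exact Clopper-Pearson and ratios exact binomial 95% intervals, which cover counting error only, and called means at least 2-fold. Genes with a mean of at least 10 CPM counted as tested. Scaling by TMM (edgeR 4.0.16) and by size factors (DESeq2 1.42.0), on the summed counts, and other barcode filters were tried (R 4.3.3, Python 3.11.15 with scipy 1.17.1, pandas 2.3.3 and numpy 2.4.6). The interval functions were tested on simulated data. The members and all gene lists were chosen with earlier results of these data known. All 34 genes are named, and values in every library are given for the 2 highest and the 1 lowest of each list by the ratio of DN3b γδ- to DN3a, and for Hspa1a, Hspa1b, Dnajb1, Hsp90aa1 and Hsp90ab1. Of each other list the highest and lowest gene by that ratio are named, with Hsf1 and Xbp1. Protein sequences were not used here.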

Additional observations from a re-analysis of the deposited data

Results flagged for a closer look

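For 10 of the 34 genes the log2 ratio of DN4 to DN3b lay above 0 on the αβ path and below 0 on the γδ path, each with its counting interval (11 with TMM scaling), and for none the other way round. Of all 7578 genes tested, 12.2% did the same and 28.6% lay below 0 on the αβ path and above 0 on the γδ path (17.5% and 17.7% with TMM scaling). With 1 library on each side, the difference was not tested. In the cytosol, Hspa8 was at 0.35 on the αβ path and -0.88 on the γδ path, Hsph1 was at 0.41 on the αβ path and -1.43 on the γδ path and Dnaja1 was at 0.32 on the αβ path and -0.89 on the γδ path. Dnajc2 was at 0.077 on the αβ path and -1.04 on the γδ path, Hsp90aa1 was at 0.54 on the αβ path and -1.55 on the γδ path and Ahsa1 was at 0.48 on the αβ path and -0.83 on the γδ path. In the ER, Hsp90b1 was at 0.11 on the αβ path and -0.71 on the γδ path, Pdia4 was at 0.27 on the αβ path and -0.23 on the γδ path and Pdia6 was at 0.032 on the αβ path and -0.58 on the γδ path. Of the mitochondrial genes, Hspe1 was at 0.11 on the αβ path and -1.36 on the γδ path.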

How the results depend on the processing

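Values are log2 ratios, or numbers of the 34 genes, and a slash joins the libraries compared. No paired analysis was possible because each group has 1 library. Of the recomputed main values 466 stayed within the spread of the genes around the median, or within 1.5 times the count, 86 moved and 4 changed sign where the spread of the genes lay to 1 side of 0. Whatever that spread, 13 of 436 recomputed compartment medians had the other sign, spread over 9 of the 30 medians. The settings below could each move a value, and apart from their own construction the cause was not tested. With TMM scaling the cytosolic median was 1.13 in DN3b γδ-/DN3a, 1.07 in DN4 γδ-/DN3a, 1.23 in DN3b γδ+/DN3a, 0.083 in Lat-KO γδ-/DN3a, 0.72 in Lat-KO γδint/DN3a, -1.28 in DN4 γδ+/DN3b γδ+ and 0.57 in Lat-KO γδint/Lat-KO γδ-. The ER median was 0.95 in DN3b γδ-/DN3a, 1.94 in DN3b γδ+/DN3a, -0.85 in DN4 γδ+/DN3b γδ+ and 0.49 in Lat-KO γδint/Lat-KO γδ-. Genes higher numbered 21 in DN3b γδ-/DN3a, 19 in DN4 γδ-/DN3a, 21 in DN3b γδ+/DN3a, 4 in Lat-KO γδint/DN3a and 1 in Lat-KO γδint/Lat-KO γδ-. Genes lower numbered 1 in Lat-KO γδ-/DN3a, 24 in DN4 γδ+/DN3b γδ+ and 1 in Lat-KO γδint/Lat-KO γδ-. With DESeq2 size factors the cytosolic median was 1.08 in DN3b γδ-/DN3a, 1.10 in DN4 γδ-/DN3a, 1.19 in DN3b γδ+/DN3a, 0.077 in Lat-KO γδ-/DN3a, 0.76 in Lat-KO γδint/DN3a and 0.62 in Lat-KO γδint/Lat-KO γδ-. The ER median was 0.90 in DN3b γδ-/DN3a, 1.91 in DN3b γδ+/DN3a and -0.77 in DN4 γδ+/DN3b γδ+. In the non-cycling range the cytosolic median was 0.25 in DN3b γδ-/DN3a, 0.075 in DN4 γδ-/DN3a, 0.47 in DN3b γδ+/DN3a, -0.64 in DN4 γδ+/DN3a and 0.55 in Lat-KO γδint/Lat-KO γδ-. The ER median was -0.19 in DN3b γδ-/DN3a, 1.48 in DN3b γδ+/DN3b γδ- and 0.61 in DN4 γδ-/DN3b γδ-. On the αβ path and in DN3b γδ+ this range held only 67 to 113 barcodes. Per barcode at 4000 UMIs, the median of ER UMIs in this range was 3 in both DN4 γδ- and DN3b γδ-, while the means were 6.19 and 3.66. The mitochondrial median was 0.65 in DN3b γδ-/DN3a and 0.56 in DN4 γδ-/DN3a. Genes higher numbered 1 in DN3b γδ-/DN3a, 0 in DN4 γδ-/DN3a, 6 in DN3b γδ+/DN3a, 13 in Lat-KO γδint/DN3a, 4 in DN4 γδ-/DN3b γδ- and 0 in Lat-KO γδint/Lat-KO γδ-. Genes lower numbered 1 in DN4 γδ-/DN3a, 5 in DN4 γδ+/DN3a, 1 in Lat-KO γδ-/DN3a and 1 in Lat-KO γδint/Lat-KO γδ-. In the cycling range (added after seeing the data) the cytosolic median was 0.19 in DN3b γδ-/DN3a, 0.10 in DN4 γδ-/DN3a, 0.16 in DN3b γδ+/DN3a, -0.42 in DN4 γδ+/DN3a, 0.056 in Lat-KO γδ-/DN3a, 0.68 in Lat-KO γδint/DN3a, -0.60 in DN4 γδ+/DN3b γδ+ and 0.62 in Lat-KO γδint/Lat-KO γδ-. The ER median was -0.078 in DN3b γδ-/DN3a and -0.18 in DN4 γδ-/DN3a. The mitochondrial median was 0.66 in DN3b γδ-/DN3a, 0.22 in DN4 γδ-/DN3a and 0.23 in DN3b γδ+/DN3a. After subtracting the B-like ratio the cytosolic median was -0.032 in DN4 γδ-/DN3a, 0.15 in DN3b γδ+/DN3a, -0.44 in DN4 γδ+/DN3a, 0.40 in Lat-KO γδint/DN3a, -0.45 in DN3b γδ+/DN3b γδ-, -0.69 in DN4 γδ-/DN3b γδ-, -0.55 in DN4 γδ+/DN3b γδ+ and 0.027 in Lat-KO γδint/Lat-KO γδ-. The ER median was 0.18 in Lat-KO γδint/Lat-KO γδ-. The mitochondrial median was 0.55 in DN3b γδ-/DN3a, 0.22 in DN4 γδ-/DN3a, 0.17 in DN3b γδ+/DN3a and -0.67 in DN4 γδ+/DN3b γδ+. The CCT median was -0.047 in DN4 γδ-/DN3a, -0.054 in DN3b γδ+/DN3a and -0.026 in Lat-KO γδint/Lat-KO γδ-. The HSP90 median was -0.032 in DN4 γδ-/DN3a. As a mean of barcode CPM the cytosolic median was 0.98 in DN3b γδ+/DN3a. Without the 8% deepest barcodes the cytosolic median was 1.03 in DN3b γδ+/DN3a and -0.43 in DN4 γδ+/DN3a. With ribosomal-protein and mitochondrial genes left out of the total the cytosolic median was 0.12 in Lat-KO γδ-/DN3a, 0.80 in Lat-KO γδint/DN3a and 0.62 in Lat-KO γδint/Lat-KO γδ-. Past 1.5-fold genes higher numbered 23 in DN3b γδ-/DN3a, 19 in DN4 γδ-/DN3a, 25 in DN3b γδ+/DN3a, 1 in Lat-KO γδ-/DN3a and 26 in Lat-KO γδint/Lat-KO γδ-. Genes lower numbered 1 in Lat-KO γδ-/DN3a, 1 in DN3b γδ+/DN3b γδ-, 1 in DN4 γδ-/DN3b γδ-, 25 in DN4 γδ+/DN3b γδ+ and 1 in Lat-KO γδint/Lat-KO γδ-. Depth limited the B-like barcodes, whose summed counts were small, and not the thymocyte levels.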
